A study of Homo sapiens with 4 samples.

Results

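The sgRNAs described here target the genes of the long arm of chromosome 11 that lie between the centromere and DDB1 in a pooled CRISPR-Cas9 knockout screen for resistance to HQ461. Members were all rows of the sgRNA table whose gene lies, by GENCODE 44 on GRCh38, from 54000000 to the start of DDB1 at 61299451. This gave 136 genes with 4 sgRNAs each, or 544 of the 77441 sgRNAs in the table, from OR4C46, which starts at 54603069, to VWCE, which ends at 61295316. The stretch was chosen from the same HQ461 and DMSO counts, so its values are given as a description, with no test. A549, a human lung adenocarcinoma line, carried the Brunello sgRNA library and was passaged for 3 weeks in 4 µM HQ461 or in the vehicle, 0.1% DMSO. The labels name 2 biological replicates per condition, but the table holds 1 column per condition, so no spread between cultures can be given. Both conditions share the parental line, the library and the puromycin selection that preceded treatment. Every count is a raw read count unless it is called scaled.

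In such a pool each cell carries 1 sgRNA, Cas9 cuts the gene that the sgRNA matches, and an sgRNA grows more abundant as its carriers outgrow the pool. DDB1 is the adaptor of the CUL4 ubiquitin ligases, and the series title names it as the partner that the compound brings to CDK12. The arm next to it is a tandem array for the most part. Olfactory receptors, odorant-binding G protein-coupled receptors known for their role in nasal sensory neurons, fill most of its centromeric part, and the MS4A genes, which encode membrane proteins such as the B cell antigen CD20, form a cluster closer to DDB1.

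Neighbouring genes of an array can share target sequences, and a few reference sites show how far. The sequences of the library's own sgRNAs were not analysed here. Instead every run of 20 bases followed by an NGG PAM inside a coding exon of the 136 genes was listed from GRCh38, 20332 sites in all, and its exact copies with an NGG PAM were counted in the genome. The sites below, shown to give a shared and an unshared case, are written 5′ to 3′ with the PAM in capitals, and none of them is known to be a guide of the library. The site in the pepsinogen genes lies on the plus strand at chr11:61203565-61203584, chr11:61222401-61222420 and chr11:61241227-61241246 (GRCh38, without the PAM), and those are its 3 sites in the genome.
PGA3, PGA4 and PGA5: atgaagtggctgctgctgctGGG
The next site occurs at 2 places in the genome, in OR8H2 at chr11:56105069-56105088 and in OR8H3 at chr11:56122399-56122418, both on the plus strand.
OR8H2: tgtggctgacttcatccttaTGG
OR8H3: tgtggctgacttcatccttaCGG
The last site, in VWCE at chr11:61258691-61258710 on the plus strand, has no further copy.
VWCE: tccccccgagaagcccccacTGG

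The whole table held 16127620 counts with HQ461 and 14428845 with DMSO. Counts were divided by size factors of 0.833 for HQ461 and 1.20 for DMSO, and the log2 fold change of an sgRNA, HQ461 over DMSO, was taken after 1 was added to each scaled count. The value of a gene is the median over its sgRNAs. Changes are relative to the median sgRNA of the table. All intervals are 95% intervals and cover counting error only, since PCR reads without molecular identifiers are not independent molecules.

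sgRNAs of this stretch were higher with HQ461 nearly throughout. Together they held 277864 counts with HQ461, 1.72% of that library (exact Clopper-Pearson interval 1.72% to 1.73%), against 95108 counts with DMSO, 0.659% (0.655% to 0.663%). At the median, an sgRNA had 384.5 counts with HQ461 and 149 with DMSO. In TIMM10, C11orf31 and OSBP 1 sgRNA each had no count in either column, and the remaining 541 sgRNAs had a median log2 fold change of 1.86, with quartiles of 1.11 and 2.54. Of these, 500 lay above 0, or 92.4%, against 49.7% of all sgRNAs of the table. A log2 fold change above 1, a doubling, was reached by 424, or 78.4%, against 19.4% of all sgRNAs. Above 2 lay 247, or 45.7%, against 6.59% of all. Below -1 lay 14, against 17.8% of all sgRNAs. Since the stretch was chosen on this contrast, nothing is read from the distance to those shares.

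At the level of genes the median was 1.81, with quartiles of 1.40 and 2.22 and a range from -1.36 to 3.40. Of 136 genes, 132 had a value above 0, 120 a value above 1 (88.2%, where 9.01% of all 19111 genes have one) and 52 a value above 2 (against 1.47% of all genes). Scaling by total counts left 76 above 1, where 2.72% of all genes then lay above 1. Only TIMM10 and PRPF19 had a value below -1, against 7.69% of all genes. The best-placed member, ZP1, ranked 27 of all genes, and 105 of the 136 were among the first 1000.

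At the centromeric edge, OR4C46, the first gene, had 657, 1101, 886 and 398 counts with HQ461, against 388, 412, 527 and 352 with DMSO, and a gene value of 1.28. The next member, OR4A5, had 194, 517, 458 and 637 counts with HQ461, against 122, 267, 96 and 142 with DMSO, and a value of 2.08. All 8 sgRNAs of the pair had more counts with HQ461. TRIM48, a tripartite motif gene, followed at 1.64, then OR4A16 at 2.36 and OR4A15 at 0.70. The last genes of the short arm, on the other side of the centromere, were mixed. OR4C45 had a value of -0.31, with 1059 counts in sum with HQ461 and 1537 with DMSO, and OR4C13 had 0.27. OR4C12, at 0.76, lay within the range of the members, with 427, 881, 60 and 101 counts with HQ461, against 305, 171, 60 and 129 with DMSO. FOLH1, the prostate membrane antigen gene, had 103 counts with HQ461 and 455 with DMSO, a value of -1.40.

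At the other edge the last member, VWCE, had 200, 1876, 1088 and 1633 counts with HQ461, against 137, 478, 488 and 571 with DMSO, and a value of 1.86. Before it lie the 3 pepsinogen A genes, precursors of the stomach protease pepsin. PGA3 stood at 2.99, PGA4 at 1.63 and PGA5 at 1.90. VPS37C, a subunit of the ESCRT-I complex of endosomal sorting, had 80, 727, 534 and 362 counts with HQ461, against 145, 211, 132 and 27 with DMSO, and a value of 2.42. DDB1 itself is far outside this range, at 14562, 17638, 15714 and 22339 counts with HQ461, against 59, 20, 14 and 25 with DMSO, a value of 10.25. Just beyond it, TKFC had a value of 2.61, CYB561A3 of 1.57, TMEM138 of 1.10, TMEM216 of 1.40 and CPSF7 of 0.33. TKFC, a dihydroxyacetone kinase gene that overlaps DDB1 in position, thus lay within the range of the members, while the 19 genes beyond DDB1 in that megabase had a median of 1.10 and the 38 of the next had 0.64.

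Along the stretch the level was somewhat higher in the part nearer DDB1. By the midpoint of each gene, the median gene value was 1.68 in the megabase from 54 (2 genes), 1.75 in that from 55 (20 genes) and 1.70 in that from 56 (27 genes). It was 1.66 in the megabase from 57 (22 genes) and 2.05 in that from 58 (19 genes). From 59 it was 1.99 (17 genes), from 60 it was 1.92 (23 genes) and from 61 up to DDB1 it was 2.09 (6 genes). The 4 bins below 58 Mb thus lay between 1.66 and 1.75 and the 4 above it between 1.92 and 2.09, while single genes spread more widely within each bin that held over 2 genes. The 27 genes of the megabase from 56, all of them olfactory receptors, each had a value above 1. Across the 136 genes the Spearman correlation of gene value with midpoint was 0.14, and 0.18 over the 130 genes with a median of at least 30 counts with DMSO, as a description, since neighbours share a chromosome arm and all genes share both libraries.

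The neighbouring stretches lay lower. The median gene value was 0.06 over 426 genes of the short arm, 0.59 over 251 genes in the first 10 Mb beyond DDB1 and 0.13 over 435 genes further out on the long arm, while 16535 genes of chromosomes other than 11 and 17 had -0.09. Chromosome 17, which holds CDK12, is set apart because its 1119 genes had a median of 0.98. The short arm had 29 genes above 1, or 6.81%, and the first 10 Mb beyond DDB1 had 68, or 27.1%. On the short arm the 5 genes of the megabase from 49 had a median of 0.27, and the 1 gene of the megabase from 50, OR4C45, had -0.31. No test of these differences is given, since the stretch was picked for them.

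Olfactory receptors make up 68 of the 136 genes. They held 139210 counts with HQ461 and 48930 with DMSO, and their sgRNAs had medians of 361 counts with HQ461 and 152.5 with DMSO. Their median gene value was 1.86, all 68 genes had a value above 0 and 62 had a value above 1 (91.2%, against 9.01% of all genes). Of their 272 sgRNAs, 260 lay above 0, 212 above 1 and 3 below -1. The highest were OR4D9 at 2.87, OR1S1 at 2.86, OR8J1 at 2.81 and OR10Q1 at 2.72. OR1S1 had 1133, 676, 1196 and 606 counts with HQ461, against 320, 162, 195 and 88 with DMSO, so that its 4 sgRNAs lay within 2.35 and 3.29. OR8J1 had 461, 288, 309 and 126 counts with HQ461, against 63, 64, 57 and 81 with DMSO. OR4D9 was less even, with 398, 84, 243 and 846 counts with HQ461, against 55, 109, 66 and 96 with DMSO, and its second sgRNA lay at 0.15. In OR10Q1 the counts were 818, 758, 350 and 1380 with HQ461, against 149, 197, 207 and 93 with DMSO. The 6 olfactory receptors not above 1 were OR4D6 at 0.60, OR4A15 at 0.70, OR4C15 at 0.73, OR10W1 at 0.75, OR5L1 at 0.82 and OR5F1 at 0.87. OR4A15 and OR4C15 lie side by side, followed by OR4C16 at 1.10. OR5L1 and OR5F1 lie in the same megabase, that from 55, where 15 of 20 genes had a value above 1. OR4D6 had 27, 148, 224 and 103 counts with HQ461, against 62, 177, 169 and 37 with DMSO, while OR4D11, close by, had 1041, 233, 1432 and 572 with HQ461, against 312, 80, 351 and 195 with DMSO, and a value of 2.17.

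The same receptor families occur elsewhere in the genome, which sets their values on both sides of the centromere side by side, where elsewhere means chromosomes other than 11 and 17. The 14 OR4 genes of the stretch had a median of 1.94, against -0.31 for 9 OR4 genes of the short arm and 0.04 for 24 on chromosomes other than 11 and 17. Within OR4C alone, 5 genes of the stretch had a median of 1.28 and a range from 0.73 to 2.57, whereas 4 on the short arm had a median of -0.02 and a range from -0.34 to 0.76. The 32 OR5 genes had 1.70, against -0.27 for 2 on the short arm and -0.10 for 13 elsewhere. Families follow the symbols of the library, so OR5R1, now named OR8U3, is counted with OR5 and not with OR8. For the 10 OR8 genes the median was 1.68, against 0.15 for 12 that lie beyond DDB1 on the same arm and 0.85 for 1 elsewhere. The 4 OR10 genes had 2.23, against 0.83 for 5 beyond DDB1, -0.32 for 5 on the short arm and -0.22 for 20 elsewhere. The 5 OR9 genes had 2.09, against -0.45 for 3 elsewhere, and the 2 OR1 genes had 2.48, against -0.30 for 17 elsewhere. OR6Q1, the 1 OR6 gene of the stretch, had 1.40, and the 1 OR6 gene of the short arm had 1.51. That family thus gives no contrast between the arms, while 3 OR6 genes beyond DDB1 had a median of 0.56 and 24 elsewhere -0.29. Over all families, 200 olfactory receptors on chromosomes other than 11 and 17 had a median of -0.11, and 16.0% of their sgRNAs lay above 1, against 77.9% of those in the stretch. The 12 olfactory receptors of chromosome 17 stood between, with a median of 0.79 and 45.8% of their sgRNAs above 1.

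The MS4A genes, 14 in all, lie between 60056587 and 60801305. They held 32290 counts with HQ461 and 9946 with DMSO, and their median gene value was 1.67, with 13 of 14 above 1, where 9.01% of all genes lie above 1. Scaling by total counts, which lowers all values, left 7 of the 14 above 1 and a median of 0.98. Of their 56 sgRNAs, 43 lay above 1. MS4A4A was the most even, with 430, 813, 765 and 578 counts with HQ461, against 96, 142, 185 and 127 with DMSO, a value of 2.69 and sgRNAs between 2.57 and 3.03. MS4A8 had the highest value, 3.04, from 947, 227, 147 and 77 counts with HQ461, against 48, 26, 37 and 110 with DMSO. The last of its sgRNAs lay at 0.01, so its high value rests on the other 3. MS4A15, at 2.85, had 1875, 1990, 1244 and 164 counts with HQ461, against 120, 431, 384 and 29 with DMSO. MS4A6A stood at 2.40, and the last of its sgRNAs had 28 counts with HQ461 and 1 with DMSO. MS4A6E carried the sgRNA of highest fold change in the stretch, at 5151 counts with HQ461 and 182 with DMSO, or 5.34, while its other sgRNAs had 305, 889 and 696 with HQ461, against 327, 278 and 305 with DMSO.

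The remaining MS4A genes were lower. MS4A1, which encodes CD20, had 523, 88, 233 and 846 counts with HQ461, against 148, 65, 182 and 230 with DMSO, and a value of 1.65. MS4A2, the beta chain of the high-affinity IgE receptor, had 636, 139, 74 and 197 counts with HQ461, against 315, 69, 154 and 177 with DMSO, and a value of 1.10. The others stood at 1.92 for MS4A14, 1.69 for MS4A3, 1.65 for MS4A10, 1.57 for MS4A5, 1.49 for MS4A7 and 1.42 for MS4A13. MS4A7 had 0.49 with a minimum of 30 scaled counts with DMSO and 0.99 on summed counts, so its place above 1 depends on those choices. MS4A12, at 0.57, was the 1 gene of the cluster not above 1, and its sgRNAs were split, with 134, 72, 191 and 756 counts with HQ461, against 248, 176, 97 and 117 with DMSO. On summed counts it had 1.38.

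The 54 other genes had a median value of 1.80, so the 2 families and the genes outside them lay between 1.67 and 1.86. Of the 54, 45 had a value above 1 (83.3%, against 9.01% of all genes) and 20 above 2 (against 1.47% of all genes). They held 106364 counts with HQ461 and 36232 with DMSO. ZP1, an egg coat glycoprotein, was highest at 3.40, from 372, 348, 230 and 1939 counts with HQ461, against 62, 37, 164 and 118 with DMSO. CCDC86, which encodes a nucleolar coiled-coil protein, followed at 3.21, with 345, 122, 470 and 86 counts with HQ461, against 47, 95, 41 and 14 with DMSO. APLNR, the apelin receptor, stood at 3.06, with 466, 654, 692 and 492 counts with HQ461, against 44, 179, 74 and 154 with DMSO, and all of its sgRNAs lay above 2. PGA3, the next gene outside the families, had 1104, 658, 748 and 965 counts with HQ461, against 118, 375, 181 and 129 with DMSO.

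Small tandem groups outside the 2 families, listed with earlier results known, had a median of 2.06. All 15 genes lay above 1, as did 88.2% of all members and 9.01% of all genes, so nothing is read from that count. Among the glycine N-acyltransferase genes, GLYATL1 had a value of 2.69 with its sgRNAs from 2.36 upwards, with 479, 969, 692 and 621 counts with HQ461, against 105, 216, 124 and 173 with DMSO. GLYAT, the mitochondrial enzyme of glycine conjugation, stood at 2.42 and GLYATL2 at 2.21. The neighbouring lymphocyte receptor genes CD6 and CD5 had values of 2.71 and 2.27. CD6 had 1196, 546, 852 and 397 counts with HQ461, against 121, 163, 165 and 98 with DMSO. The FAM111 protease genes had 2.08 for FAM111B and 1.22 for FAM111A, the transporter genes SLC43A1 and SLC43A3 had 1.82 and 1.58, and OOSP2, an oocyte secreted protein gene, had 2.06. PRG2, the eosinophil major basic protein, had 1.75 and its homologue PRG3 had 1.28.

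Genes of the ubiquitin system in the stretch had values from -1.36 to 2.47. UBE2L6, an E2 enzyme of ISG15 attachment, had 1928, 1718, 278 and 916 counts with HQ461, against 406, 451, 73 and 278 with DMSO, and a value of 2.45 with sgRNAs between 2.24 and 2.77. DTX4, a ubiquitin ligase of the Deltex family, had a value of 2.47 and ZFP91, a zinc finger protein with ligase activity, of 2.20. Of 7 genes, listed with earlier results known, 5 lay above 1 (71.4%, against 88.2% of all members and 9.01% of all genes). Among the 5 were VPS37C and TRIM48, while TRIM51 had 0.81 and PRPF19 had -1.36. The list thus had a smaller share above 1 than all members but a higher median, 2.20 against 1.81.

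The lowest values lay in genes with few counts. The 5 lowest genes of the stretch were PRPF19 at -1.36, TIMM10 at -1.23, OSBP at -0.95, CLP1 at -0.38 and SSRP1 at 0.06. PRPF19, a spliceosomal ubiquitin ligase, had 0, 4, 4 and 4 counts with HQ461, against 3, 12, 11 and 23 with DMSO, and the log2 ratio of its summed scaled counts was -1.50 (-2.55 to -0.57). TIMM10, a chaperone of mitochondrial protein import, had 3 counts in sum with HQ461 and 23 with DMSO, a ratio of -2.41 (-4.79 to -0.68). SSRP1, a subunit of the histone chaperone FACT, had 14, 21, 1 and 8 counts with HQ461, against 21, 23, 15 and 10 with DMSO, and its interval, -0.70 to 0.44, included 0. Of the 5, PRPF19, TIMM10, CLP1 and SSRP1 are on a list of genes that most cells need, described below, and OSBP is not. That list was chosen with earlier results known, so nothing is read from the overlap.

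In CLP1 and OSBP the sgRNAs of a gene were split. CLP1, an RNA kinase of mRNA and tRNA processing, had 1, 87, 1 and 11 counts with HQ461, against 9, 54, 10 and 5 with DMSO. OSBP, a sterol carrier between membranes, had 5, 528, 6 and 0 counts with HQ461, against 15, 104, 29 and 0 with DMSO. In each gene the sgRNA with most counts with DMSO lay above 1, at 1.20 in CLP1 and 2.86 in OSBP. In CLP1 the sgRNA with fewest, 5 counts with DMSO and 11 with HQ461, lay higher still, at 1.46. The part of coverage in these splits was not tested. MRPL16, of the mitochondrial ribosome, had a like split, with 68, 12, 10 and 347 counts with HQ461, against 27, 18, 24 and 66 with DMSO, and a value of 0.88. With a minimum of 30 scaled counts with DMSO, CLP1, OSBP and MRPL16 each kept only the sgRNA with most counts with DMSO and moved above 1. MED19, a Mediator subunit, had 172, 361, 157 and 26 counts with HQ461, against 41, 37, 142 and 92 with DMSO, and a value of 1.61.

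The list of 7 genes that most cells need, in which CCDC86 and MED19 were the 2 above 1, had a median value of 0.06, and its sgRNAs had medians of 11.5 counts with HQ461 and 19.5 with DMSO. The part of these low counts in the values was not tested. The log2 ratio of summed counts of the list was instead 1.96 (1.85 to 2.08), from 2335 counts with HQ461 and 863 with DMSO. Most of these counts lay in CCDC86 (1023 with HQ461, 197 with DMSO), MED19 (716 and 312) and MRPL16 (437 and 135). The 47 other genes outside both families and this list had a median of 1.86, with 43 above 1 (91.5%, against 9.01% of all genes). Beside OSBP, those not above 1 were TRIM51, TMX2 at 0.90 and LPXN at 0.95.

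Between these extremes stood genes of many functions at much the same level. LRRC55, a potassium channel subunit, had 817, 694, 351 and 513 counts with HQ461, against 212, 209, 155 and 100 with DMSO, and a value of 2.36. BTBD18 stood at 2.64 and TMEM109 at 2.44. P2RX3, an ATP-gated channel, stood at 2.02, PATL1, of mRNA decapping, at 2.15, and MPEG1, perforin-2, at 1.99. CTNND1, the adherens junction protein p120 catenin, had 919, 1008, 87 and 591 counts with HQ461, against 313, 139, 166 and 318 with DMSO, and a value of 1.75. SERPING1, the C1 inhibitor, had 1.70, STX3, a SNARE protein, 1.69, ZDHHC5, a palmitoyltransferase, 1.60, and TCN1, which binds vitamin B12, 1.55. The highest sgRNA of TCN1, at 4.73, had 555 counts with HQ461 and 29 with DMSO.

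sgRNAs to 1 gene share their target and are not replicates of a condition, but their agreement can be described. Among 133 genes with 4 measured sgRNAs, 56 had all 4 above 1 (42.1%, where 1.51% of all such genes have), 49 had 3, 24 had 2, 2 had 1 and 2 had none. In 105 of the 136 genes every measured sgRNA lay above 0. The SD between sgRNAs of a gene was 1.08, against 1.23 for genes on chromosomes other than 11 and 17. Gene means had an SD of 0.70, where the spread within genes alone would give 0.54. For olfactory receptors the 2 values were 0.57 and 0.51, so receptor means varied little more than the spread within genes alone would give. For MS4A genes the values were 0.76 and 0.64, and for genes outside the 2 families 0.83 and 0.54. Without the 5 lowest genes of the stretch the latter became 0.54 and 0.53. Leaving out the lowest values narrows that spread by construction, so nothing is read from this change. Against non-targeting controls, 70 sgRNAs of the stretch, or 12.9%, lay above the 99th percentile of the controls at 2.92, as did 2.44% of all targeting sgRNAs. The controls had a median of -0.04 with an SD of 0.87, and 11.9% of them lay above 1, against 78.4% of the members. Most single members lay below the 99th percentile of the controls. Since the stretch was chosen on this contrast, nothing is read from its distance to the controls.

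Abundance with DMSO was close to that of the rest, at a median of 149 counts per sgRNA, against 152 for all targeting sgRNAs. Split by scaled counts with DMSO, 157 sgRNAs with 30 to 100 had a median log2 fold change of 2.19, against -0.10 for such sgRNAs on chromosomes other than 11 and 17. For 207 sgRNAs with 100 to 200 it was 1.87, against -0.13, and for 125 with 200 to 400 it was 1.70, against -0.04. The 11 sgRNAs with 400 or more had 1.38, against -0.08. The medians were thus lower at higher counts and above 1 in each of these classes. In the class of 400 or more, 3 olfactory receptor sgRNAs had a median of 0.59 and 6 of genes outside the families had 1.72. The DMSO counts that set the classes are also the denominator of the fold change, so nothing is read from that order. Below 30 scaled counts, 41 sgRNAs had a median of 1.17, against 0.01 elsewhere, and the 29 of them that target genes outside the families had -0.05, while 11 of those 29 lay above 1.

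The share of target sites with copies differed between the families. Of the 20332 coding sites listed from the reference, 11.2% had a further exact copy in the genome, and 9.19% had one inside the stretch. The share was 17.8% for olfactory receptors, 3.79% for MS4A genes and 8.22% for the others. It was highest in PGA4, at 100%, PGA3, at 96.7%, and PGA5, at 93.9%, then in TRIM48, at 80.3%, and TRIM51, at 70.4%. Those 5 genes had values of 1.63, 2.99, 1.90, 1.64 and 0.81 in that order. In 38 genes no coding site had a copy, and their median value was 1.70, against 1.90 for the 98 genes with any copy and 1.94 for the 36 genes in which at least 20% of sites had one. Among MS4A genes the order was the same, at 1.61 for the 10 with none and 2.18 for the 4 with any. Genes outside the families had 1.75 for the 25 with none and 1.96 for the 29 with any. Among olfactory receptors it was the other way round, at 2.41 for the 3 with none and 1.80 for the 65 with any. That order rests on 3 genes, and the 25 receptors with at least 20% of sites copied had 1.92. Which of these sites the library uses was not analysed, so the number of cuts per sgRNA and its part in the values were not tested.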

How the data were processed

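The authors counted reads per sgRNA of the Brunello library with MAGeCK 0.5.9.2 and deposited the counts without normalization, in 1 column per condition. The sources used here do not say how the 2 replicates of a condition entered 1 column. The members and lists were chosen with earlier results of these data known. Genes were placed on GENCODE 44 by symbol (17949) or by an unambiguous older symbol from RefSeq (954), and 209 were not placed. Of these, GIF, an older symbol that CBLIF shares with other genes, was left out. sgRNAs at 0 in both columns (273) were removed, and size factors were median ratios. Named genes were the 5 at each edge, the 10 highest and 5 lowest, all MS4A genes and the fixed lists. Others were named after their values had been seen. Alternatives changed the scaling (total counts, TMM by edgeR 4.0.16, non-targeting controls), the minimum count, the pseudocount and the gene summary. Python 3.11.15, numpy 2.4.6, pandas 2.3.3 and scipy 1.17.1 were used. The functions were tested on simulated data.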

Additional observations from a re-analysis of the deposited data

How the results depend on the processing

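Scaling by total counts moved the median of all sgRNAs to -0.69, and the median of the stretch to 1.17 over sgRNAs and 1.12 over genes, with 1.18 for olfactory receptors, 0.98 for MS4A genes and 1.11 for the others. Genes above 1 then numbered 76 in place of 120, where 2.72% of all genes lay above 1. Without each gene's highest sgRNA, which lowers every gene by construction, the medians were 1.49 over sgRNAs, 1.47 over genes, 1.47 for olfactory receptors and 1.46 for the other genes. Summed counts per gene gave a median of 1.97 over genes. Under TMM, scaling by controls, a minimum of 30 counts, both pseudocounts and the changes of membership, medians over genes lay between 1.78 and 1.87. The gap to the short arm lay between 1.70 and 1.84 over the alternatives of scaling, minimum count, pseudocount and gene summary. Among the named genes SSRP1, OR4D6, MS4A12, CLP1, OSBP and MRPL16, none of them above 1 or below -1, changed sign under at least 1 alternative. Counting GIF as CBLIF, and leaving out the 5 lowest genes, were chosen after the data had been seen. GIF had a value of 2.01.

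No paired analysis was possible because replicates share a column, and leaving out a replicate was not run for the same reason. Few counts with DMSO limit the values of genes such as TIMM10 and PRPF19.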
